A study of Mus musculus with 12 samples.

Results

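The 10 genes described here encode transcription factors of the granule cell lineage: Zic1, Zic2, Zic4, Zic5, Neurod1, Neurod2, Pax6, Etv1, Barhl1 and Barhl2. They were picked by symbol from a table of 18394 genes, all 10 were present, and all 10 passed the filter on low counts together with 15467 genes in all. Libraries came from cerebella of 6 cKO mice, labelled deltaalpha6-Cre Crfr1 knock-out, and 6 WT mice. Strain, age and sex are not stated, and no group labelled with the Cre driver alone was analysed, so loss of the receptor, the driver and DNA linked to either cannot be told apart. The driver bears the name of the GABA-A receptor subunit α6, a product of mature granule cells, while each library holds the RNA of a whole cerebellum. For every gene below, fewer cells of a type and less RNA per cell cannot be told apart.

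Granule cells are the small excitatory neurons of the cerebellar cortex, and their precursors arise from the rhombic lip, multiply at the cerebellar surface and migrate inwards as they mature. The Zic zinc finger proteins and the paired-box protein Pax6 mark the lineage from its precursors to adult neurons. The basic helix-loop-helix proteins Neurod1 and Neurod2 drive differentiation and survival, the ETS protein Etv1 switches on genes of late maturation, and the homeobox proteins Barhl1 and Barhl2 belong to the early lineage, where Barhl1 is needed in mice for granule cell migration and survival.

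The libraries held 32.3 to 58.7 M counts in cKO and 23.8 to 62.1 M counts in WT (M, the prefix mega), so depth overlapped between the genotypes. Levels below are CPM, that is, counts per M of TMM-scaled library size. The 15 mature granule cell genes, among them Gabra6 and Slc17a7, summed to 8862 to 9654 CPM in cKO and 9176 to 9512 CPM in WT. Crhr1, the symbol of Crfr1, lay between 88.7 and 104.8 CPM in cKO and between 91.6 and 101.6 CPM in WT. A count over the whole gene includes its undeleted parts and other cells, so it does not check the knockout. Gabra6 was 583 to 669 CPM in cKO and 710 to 871 CPM in WT.

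All 10 factors were detected in all 12 libraries, with at least 395 counts each (the lowest was Barhl1), at levels that spanned a wide range. Per kilobase of exon, the mean level of the highest was 52.7 times that of the lowest in cKO and 44.5 times in WT. Neurod1 was the highest, with 168 ± 6.59 CPM per kb in cKO and 162 ± 10.3 in WT (SD, n = 6 each). Zic1 and Zic2 followed and their ranges overlapped in both genotypes: Zic1 had 104.9 ± 2.93 CPM per kb in cKO and 113 ± 3.43 in WT, and Zic2 had 108 ± 3.77 in cKO and 110.2 ± 5.82 in WT. Etv1 and Neurod2 came next. Etv1 lay above Neurod2 in 6 of 6 cKO libraries (50.04 ± 1.48 against 40.01 ± 1.06 CPM per kb), whereas in WT their ranges overlapped (43.6 ± 1.83 against 44.4 ± 1.85 CPM per kb). Below them stood Pax6, Barhl2, Zic4, Barhl1 and Zic5, in that order in both genotypes and with no overlap between neighbours. Zic5, the lowest, had 3.19 ± 0.13 CPM per kb in cKO and 3.65 ± 0.19 in WT. These lengths count the exons of basic protein-coding transcripts. With the exons of all annotated transcripts, an alternative chosen after seeing the data, Neurod2 stood above Etv1 in both genotypes and Barhl2 above Pax6, and Zic1 stood above Zic2 in cKO as well as in WT, so those orders rest on the choice of transcripts.

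**Figure D1:**
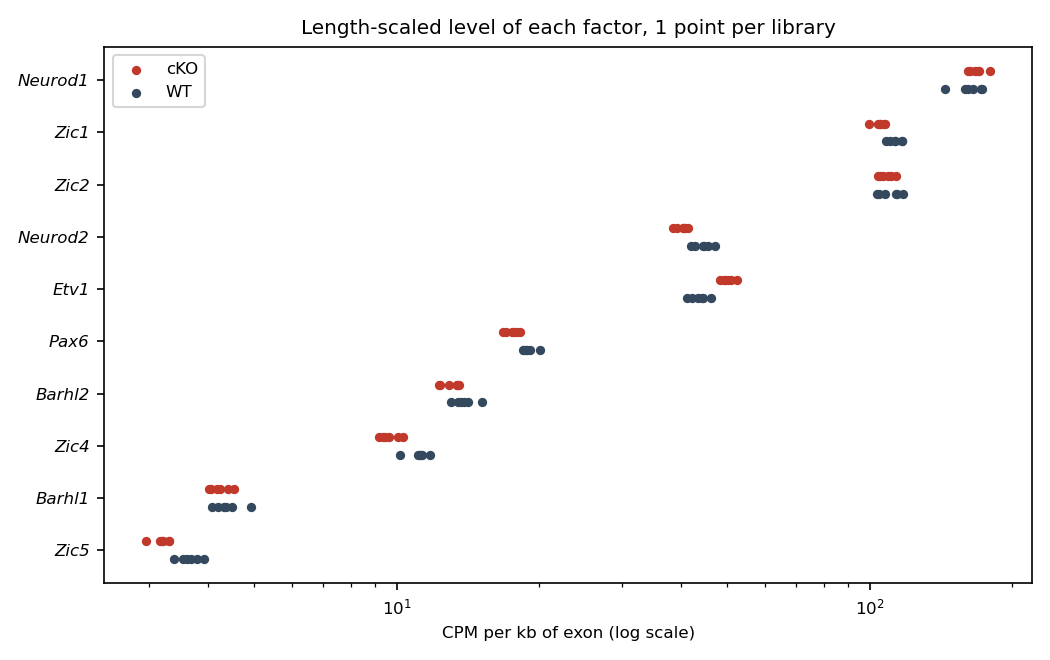
Level of each factor in CPM per kb of exon on a log axis, with 1 point per library, cKO in red above WT in dark blue. Neurod1 is highest and Zic5 lowest in both genotypes, and Etv1 lies to the right of its WT points in all 6 cKO libraries.

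Of the 10 factors, Zic1, Zic4, Zic5, Neurod2 and Pax6 fell in cKO cerebella and Etv1 rose, while Zic2, Neurod1, Barhl1 and Barhl2 did not pass the test. The 6 changes lay between 7.30% and 14.9%. Over all 15467 genes tested, 2.64% were called, 1.38% lower and 1.27% higher in cKO (quasi-likelihood test of edgeR, adjusted p under 0.05 by Benjamini-Hochberg), against 5 lower and 1 higher of the 10 factors. The median log2 fold change of the 10 was -0.10, and that of all genes tested was -0.00027. The 6 cKO libraries lay wholly below the 6 WT libraries for Zic1, Zic5, Neurod2 and Pax6, 4 of the 10, where 1.14% of all genes did so, and wholly above them for Etv1, where 0.95% of all genes did so (2.09% in either direction). The 5 lower calls depended on the covariates in the fit: with 3 surrogate variables as covariates 0 of the 5 remained called. DESeq2 without them called all 5. In the edgeR fit with surrogate variables, 6 factors were lower at an unadjusted p under 0.05, where 4.97% of all genes tested were. These were the 5 and Barhl1, whose log2 fold change was -0.12 (SE 0.06) there and -0.05 (SE 0.05) without covariates. Neurod1 moved the other way, from 0.05 (SE 0.04) without covariates to 0.11 (SE 0.04). The call of Etv1 held in every fit that was run.

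**Figure D2:**
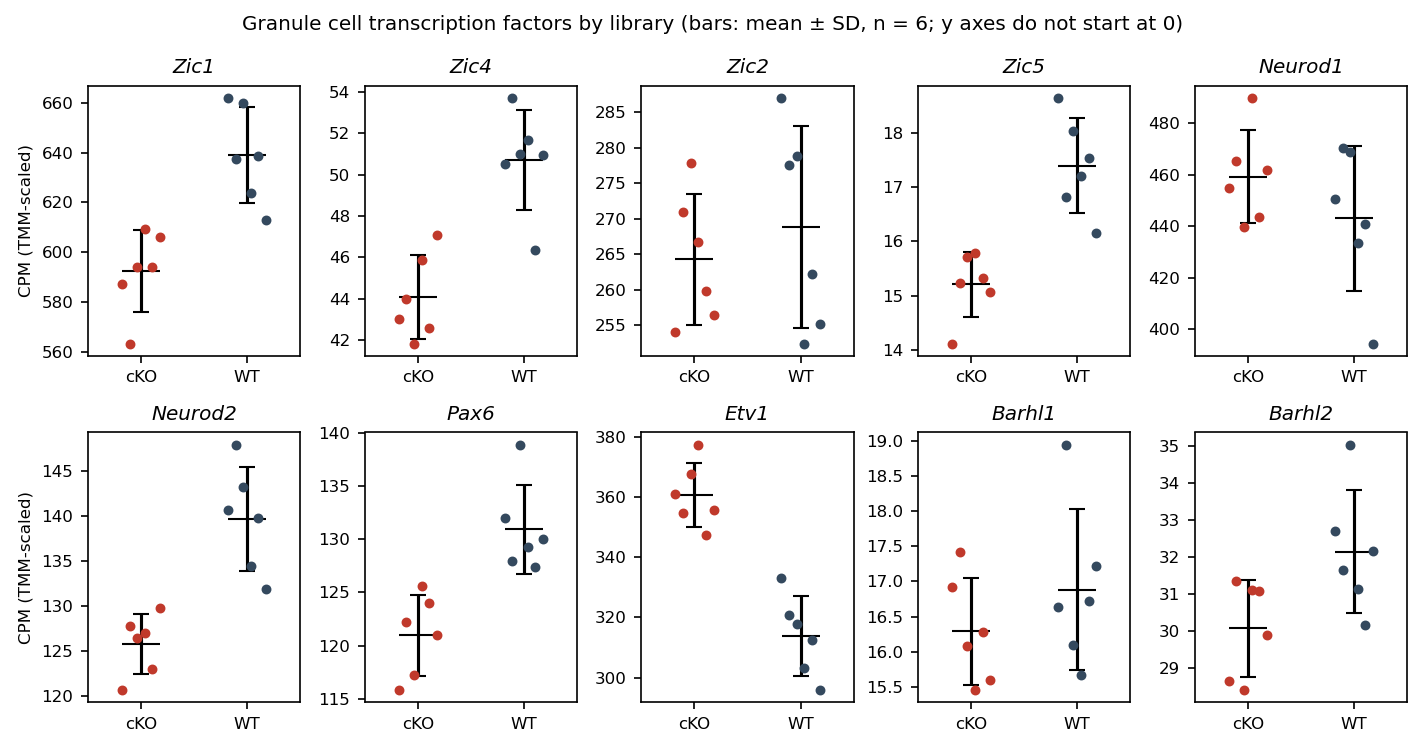
TMM-scaled CPM of each factor in every library, cKO left of WT, with the mean and SD of 6 libraries. The y axes do not start at 0. Zic1, Zic5, Neurod2 and Pax6 show no overlap with cKO lower, Etv1 shows no overlap with cKO higher, and Zic4 overlaps through a single WT library at 46.4 CPM.

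Zic1 and Zic4 are neighbours that point away from each other, and both fell. In humans, deletions that remove both genes are associated with malformation of the cerebellum. Zic1 lies on chromosome 9 from 91358058 to 91365810 on the minus strand and Zic4 from 91362413 to 91389348 on the plus strand (mm10, GENCODE M21). The spans overlap by 3398 bases, of which 60 are exonic in both, and without the strand setting of the count, reads there cannot be assigned to one gene. Zic1 ranged from 563 CPM through a median of 594 to 610 CPM in cKO, against 613, 638 and 662 CPM in WT. Every cKO library was below every WT library, by a narrow margin at the nearest pair. Zic1 fell by 7.30% (log2 fold change -0.11, SE 0.02, edgeR adjusted p = 0.0208). Zic4 ranged from 41.8 CPM through a median of 43.5 to 47.1 CPM in cKO, against 46.4, 51.0 and 53.7 CPM in WT. The groups met at WT replicate 5, which was lower than cKO replicate 6. Zic4 fell by 13.0% (log2 fold change -0.20, SE 0.04, edgeR adjusted p = 0.00359). Zic1 lost its call without WT replicate 1 (log2 fold change -0.10, edgeR adjusted p = 0.0573) or WT replicate 3 (-0.10, adjusted p = 0.0650). With surrogate variables the log2 fold changes were -0.06 for Zic1 and -0.12 for Zic4 (edgeR adjusted p = 0.508 and 0.215).

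Their transcription starts lie 3204 bases apart in RefSeq (GRCm38.p6), and the windows from 250 bases before to 50 after each start are shown because the pair moved together. Capitals mark E-boxes, CANNTG on either strand, the sequence class bound by basic helix-loop-helix proteins such as Neurod1 and Neurod2. Zic1 (chr9:91365719-91366018, minus strand) has 1, at -98 from the start, and Zic4 (chr9:91368722-91369021, plus strand) has 2, at -26 and 29.
Zic1: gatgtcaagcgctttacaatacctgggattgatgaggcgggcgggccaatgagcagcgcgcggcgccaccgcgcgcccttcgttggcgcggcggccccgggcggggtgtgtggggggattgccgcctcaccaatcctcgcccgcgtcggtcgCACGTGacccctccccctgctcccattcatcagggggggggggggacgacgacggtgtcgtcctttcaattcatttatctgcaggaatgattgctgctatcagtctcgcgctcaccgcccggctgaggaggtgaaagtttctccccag
Zic4: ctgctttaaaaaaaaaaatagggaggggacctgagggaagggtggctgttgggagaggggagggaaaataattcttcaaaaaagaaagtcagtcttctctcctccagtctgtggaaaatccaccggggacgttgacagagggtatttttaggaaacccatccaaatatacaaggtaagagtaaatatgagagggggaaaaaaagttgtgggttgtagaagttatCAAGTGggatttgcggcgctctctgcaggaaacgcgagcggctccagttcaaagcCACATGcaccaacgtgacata
Of 12 windows for 9 of the 10 genes, 10 hold an E-box, or 83.3%, against 72.3% of all 32851 mouse windows. The narrower form CAGATG, which is itself an E-box, is in 2 of the 12 (16.7%) against 17.2% of all windows. The letters CCTGCTG, part of the motif of Zic proteins, are in 0 of 12 windows against 10.5% of all. TAATTA, a core bound by many homeobox proteins, is in 1 of 12 (8.33%, against 5.29%), and CCGGAA, a core bound by ETS proteins, is in 1 of 12 (8.33%, against 14.9%). All motifs were searched on both strands, and a match describes letters only.

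The second Zic pair divided. Zic2, mutated in human holoprosencephaly, and Zic5 lie on chromosome 14, Zic2 from 122475435 to 122479852 on the plus strand and Zic5 from 122456795 to 122465677 on the minus strand, with 9757 bases between them. Zic5 ranged from 14.1 CPM through a median of 15.3 to 15.8 CPM in cKO, against 16.2, 17.4 and 18.7 CPM in WT, with no overlap. It fell by 12.2% (log2 fold change -0.19, SE 0.04, edgeR adjusted p = 0.0194). Zic2 ranged from 254.0 CPM through a median of 263 to 278 CPM in cKO, against 252, 270 and 287.0 CPM in WT. The WT range enclosed the cKO range, and the log2 fold change was -0.02 (SE 0.03, 95% interval from -0.09 to 0.05, edgeR adjusted p = 0.812). Zic5 lost its call without WT replicate 1 (log2 fold change -0.17, edgeR adjusted p = 0.0505) or WT replicate 3 (-0.17, adjusted p = 0.0615), and with surrogate variables (-0.14, adjusted p = 0.410).

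Ratios of related factors within a library do not depend on how libraries are scaled, and they tested whether paralogues changed unequally. They were tested without covariates, so whether they depend on covariates, as the lower calls do, was not tested. The share of other gene pairs without overlap is not given here. Counts of Zic2 were 17.4 ± 0.48 times those of Zic5 in cKO and 15.5 ± 0.65 times in WT (SD, n = 6 each). The log2 ratio was higher by 0.17 in cKO with no overlap, which gives the smallest p this design allows (two-sided exact permutation test, p = 0.00216, adjusted over 4 ratios 0.00432). The ratio of Zic1 to Zic4 was 13.5 ± 0.57 in cKO and 12.6 ± 0.76 in WT, a log2 difference of 0.09 that did not pass (exact permutation p = 0.0606, adjusted over 4 ratios 0.0808). Without cKO replicate 2 or WT replicate 5 that difference was 0.11 or 0.12 (unadjusted exact permutation p = 0.0476 and 0.0238).

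Among the 4 Zic genes, Zic1 and Zic2 made up most of the summed length-scaled level. Zic1 held 46.4 ± 1.13% of it in cKO and 47.5 ± 0.67% in WT, and Zic2 held 47.9 ± 1.23% in cKO and 46.3 ± 0.73% in WT (SD, n = 6 each). Zic4 held 4.28 ± 0.20% in cKO and 4.68 ± 0.27% in WT, and Zic5 held 1.41 ± 0.04% in cKO and 1.53 ± 0.05% in WT. With the exons of all annotated transcripts these shares were 51.2 ± 1.18% in cKO and 52.5 ± 0.68% in WT for Zic1, and 45.2 ± 1.21% in cKO and 43.6 ± 0.72% in WT for Zic2. The share of Zic4 then was 2.10 ± 0.10% in cKO and 2.29 ± 0.13% in WT (its annotated exons span 10335 bases in all, against 4554 in basic transcripts), and that of Zic5 was 1.53 ± 0.04% in cKO and 1.66 ± 0.05% in WT.

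Neurod2 fell while its paralogue Neurod1 was not called. Neurod1, without which granule cells of mice fail to survive, lies on chromosome 2 from 79452521 to 79456751 on the minus strand, where Cerkl overlaps it on the same strand. It ranged from 440 CPM through a median of 458 to 490 CPM in cKO, against 394, 446 and 470 CPM in WT. The groups overlapped widely, and WT replicate 6 was the lowest of the 12 libraries. The log2 fold change of Neurod1 was 0.05 (SE 0.04, 95% interval from -0.03 to 0.13, edgeR adjusted p = 0.577). Neurod2, which is also known from inhibitory interneurons of the molecular layer in mice, ranged from 120.6 CPM through a median of 127 to 130 CPM in cKO, against 132, 140.2 and 148 CPM in WT, with no overlap. It fell by 9.86% (log2 fold change -0.15, SE 0.03, edgeR adjusted p = 0.00489) and kept its call whichever single library was left out. With surrogate variables its log2 fold change was -0.11 (SE 0.04, edgeR adjusted p = 0.175). Neurod1 counts were 3.65 ± 0.14 times those of Neurod2 in cKO and 3.17 ± 0.10 times in WT (SD, n = 6 each). The log2 ratio was higher by 0.20 in cKO with no overlap (two-sided exact permutation test, p = 0.00216, adjusted over 4 ratios 0.00432).

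**Figure D3:**
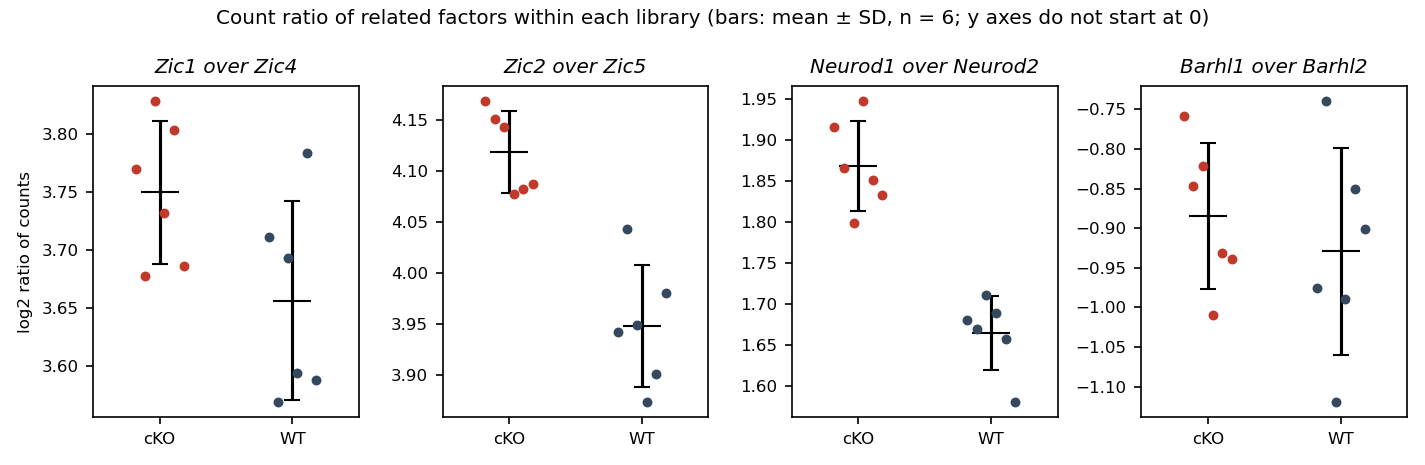
Log2 ratio of the counts of 2 related factors within each library, cKO left of WT, with the mean and SD of 6 libraries. The y axes do not start at 0. Zic2 over Zic5 and Neurod1 over Neurod2 are higher in all 6 cKO libraries, by 0.17 and 0.20 on average, and the other ratios overlap.

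Neurod2 is the only one of the 10 on chromosome 11, which also carries the target Crhr1 and Gabra6, the gene of the subunit that the driver is named after. The labels do not say where in the genome the driver sits. Neurod2 lies from 98325415 to 98329648 on the minus strand, 5.80 Mb from Crhr1 and 56.0 Mb from Gabra6. The part of linked DNA in its lower level was not tested. Its start window is shown with that of Etv1, since these are the 2 windows that hold CAGATG or its complement, and the genes changed in opposite directions. Neurod2 (chr11:98329596-98329895, minus strand) has E-boxes at -118, -51 and -17. The second RefSeq start of Etv1 (chr12:38783461-38783760, plus strand) has them at -194, -126 and -45, and its first start has none.
Neurod2: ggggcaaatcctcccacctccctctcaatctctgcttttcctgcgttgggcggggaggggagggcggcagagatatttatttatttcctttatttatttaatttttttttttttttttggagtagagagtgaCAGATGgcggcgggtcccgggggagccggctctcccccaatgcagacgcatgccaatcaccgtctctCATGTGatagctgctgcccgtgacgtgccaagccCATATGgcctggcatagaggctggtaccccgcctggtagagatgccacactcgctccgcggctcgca
Etv1: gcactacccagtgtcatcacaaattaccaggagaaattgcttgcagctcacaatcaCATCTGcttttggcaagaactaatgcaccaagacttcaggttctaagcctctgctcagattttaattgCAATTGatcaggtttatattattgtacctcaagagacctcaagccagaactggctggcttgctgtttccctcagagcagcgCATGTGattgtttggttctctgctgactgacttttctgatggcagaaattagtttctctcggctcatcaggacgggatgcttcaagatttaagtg

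Etv1 was the factor that rose, and it had the smallest p of the 10. In cultured granule cells it is known to respond to membrane potential and to control maturation genes such as the NMDA receptor subunit gene Grin2c. Etv1 lies on chromosome 12 from 38779380 to 38870484 on the plus strand. It ranged from 347 CPM through a median of 358 to 377 CPM in cKO, against 296, 315 and 333 CPM in WT. All 6 cKO libraries were above all 6 WT libraries. Etv1 rose by 14.9% (log2 fold change 0.20, SE 0.03, edgeR adjusted p = 0.000329). Its log2 fold change was 0.18 to 0.22 when each library was left out in turn, with an edgeR adjusted p of at most 0.00145, and 0.23 with surrogate variables (adjusted p = 0.000992). Grin2c, singled out after its values were seen, had 607 CPM in cKO and 635 CPM in WT and was not called (log2 fold change -0.07, SE 0.03, edgeR adjusted p = 0.368). The related ETS genes Etv4 and Etv5 had log2 fold changes of 0.07 and 0.13 (SE 0.05 and 0.06) and were not called (edgeR adjusted p = 0.554 and 0.303).

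Pax6, a factor of rhombic lip derivatives that is also present in unipolar brush cells, fell slightly. It lies on chromosome 2 from 105668900 to 105697364 on the plus strand, where the antisense gene Pax6os1 overlaps it. Pax6 ranged from 116 CPM through a median of 122 to 126 CPM in cKO, against 127, 129.6 and 139 CPM in WT, with no overlap. It fell by 7.61% (log2 fold change -0.11, SE 0.03, edgeR adjusted p = 0.0243). It was called in 12 of 20 alternative fits, the fewest of the 6, and the call was lost without cKO replicate 1 (log2 fold change -0.10, edgeR adjusted p = 0.0585), cKO replicate 3 (-0.11, 0.0725), WT replicate 1 (-0.11, 0.0552) or WT replicate 3 (-0.10, 0.0668), with counts thinned to the smallest library (-0.10, 0.0648) and with surrogate variables (-0.08, 0.401). Eomes, which marks unipolar brush cells, had 11.8 CPM in cKO and 21.8 CPM in WT and fell by 45.7% (edgeR adjusted p = 3.06e-07). Of the 7 unipolar brush and nuclear neuron markers, 4 had a positive and 3 a negative log2 fold change, with a median of 0.27, and 1, Eomes, was called in edgeR and in DESeq2. Lmx1a, another factor of unipolar brush cells, had 1.02 CPM in cKO and 1.44 CPM in WT (log2 fold change -0.46, SE 0.16, edgeR adjusted p = 0.176). The summed level of all 7 unipolar brush and nuclear neuron markers overlapped, at 50.6 to 86.5 CPM in cKO and 64.1 to 86.9 CPM in WT. The largest part of that sum was the glutamate transporter gene Slc17a6, with 35.8 CPM in cKO and 29.5 CPM in WT. The part of these cells in the Pax6 result was not tested.

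The Barhl genes did not pass. Barhl2 (chromosome 5, 106452523 to 106458166, minus strand) ranged from 28.4 CPM through a median of 30.5 to 31.3 CPM in cKO, against 30.2, 31.9 and 35.02 CPM in WT. The lower 3 cKO libraries were below all WT libraries and the other 3 lay among them. It had a log2 fold change of -0.10 (SE 0.04, 95% interval from -0.18 to -0.02), with an unadjusted p of 0.0220 and an edgeR adjusted p of 0.244. Barhl1 (chromosome 2, 28907679 to 28916668, minus strand) ranged from 15.5 CPM through a median of 16.2 to 17.4 CPM in cKO, against 15.7, 16.7 and 19.0 CPM in WT, and the ranges overlapped almost wholly. Here the log2 value for cKO over WT was -0.05 (SE 0.05, 95% interval from -0.15 to 0.04, edgeR adjusted p = 0.670). Barhl1 had 0.54 ± 0.03 times the counts of Barhl2 in cKO and 0.53 ± 0.05 times in WT (SD, n = 6 each; two-sided exact permutation test, p = 0.509).

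**Figure D4:**
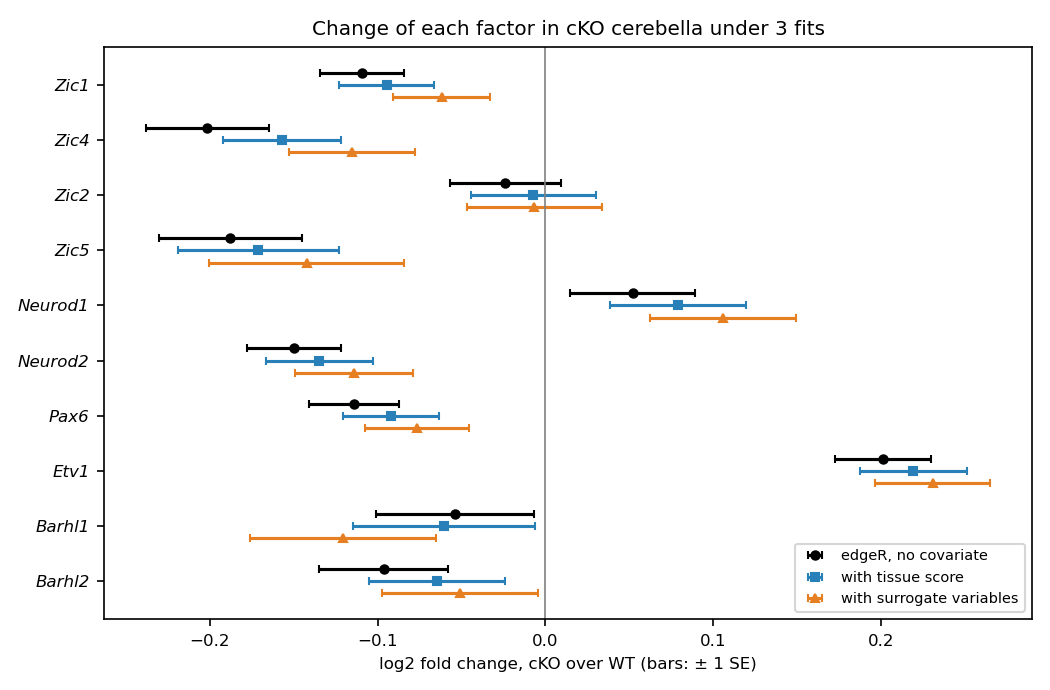
Log2 fold change of each factor, cKO over WT, with 1 SE, in the fit without covariates (black), with the tissue score (blue) and with surrogate variables (orange). Etv1 stays between 0.20 and 0.23 in the 3 fits. Of their own 3 values, Zic1, Zic4, Zic5, Neurod2 and Pax6 each have the one nearest to 0 with surrogate variables. Those values are -0.06, -0.12, -0.14, -0.11 and -0.08. The same holds for Zic2 and Barhl2, while Barhl1, Neurod1 and Etv1 have the value farthest from 0 in that fit.

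Libraries of one genotype were close for all 10 factors, with coefficients of variation of 2.65% to 6.79%. The WT coefficient was the larger for each of the 10. The share of all genes tested with a larger WT coefficient is not given here, so this is not read as particular to the factors. Single libraries recurred at the extremes. Among cKO libraries, replicate 4 was highest for 5 factors (Zic1, Zic5, Neurod1, Pax6 and Etv1) and replicate 1 lowest for 4 (Zic2, Zic5, Neurod2 and Pax6). In WT, replicate 6 was lowest for 5 (Zic1, Zic5, Neurod1, Neurod2 and Etv1), and replicates 1 and 2 were each highest for 4.

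The mean log2 CPM of 12 forebrain, midbrain and brainstem markers was taken as a score of tissue from outside the cerebellum. Ppp1r1b stood far above the others, with 134 CPM in cKO and 140 CPM in WT, and Th had 6.46 and 6.67 CPM. Whether cerebellar cells add to these markers was not tested, so the score may hold cerebellar signal. The score ran from 0.64 to 1.16 in cKO and from 0.57 to 1.02 in WT, and cKO replicates 1, 3 and 2 and WT replicate 5 had the highest values. With the score as a covariate, Zic4 and Neurod2 kept their calls (edgeR adjusted p = 0.0233 and 0.0341), while Zic1, Zic5 and Pax6 had log2 fold changes of -0.09, -0.17 and -0.09 and lost theirs (adjusted p = 0.112, 0.0878 and 0.138). Without those 4 libraries, an alternative chosen after seeing the data, Zic4 and Etv1 kept their calls at log2 fold changes of -0.19 and 0.20 (edgeR adjusted p = 0.0387 and 0.0236). Neurod2, Zic1, Zic5 and Pax6 then had -0.14, -0.08, -0.17 and -0.09 (adjusted p = 0.150 to 0.391). The summed CPM of the forebrain markers overlapped between genotypes (144 to 158 in cKO, 148 to 160 in WT), as did that of the midbrain and brainstem markers (8.05 to 10.4 in cKO, 8.06 to 9.51 in WT).

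No other listed factor of the lineage was called in edgeR. Of 14 tested out of 16 listed, among them Nfia, Nfib, Meis1 and Mef2d, 0 passed in edgeR, 1 had an unadjusted p under 0.05, as 14.2% of all genes tested did, and DESeq2 called 1, Nfib. Nfib, a nuclear factor I protein of granule cell maturation, had a log2 fold change of 0.10 (SE 0.03, edgeR adjusted p = 0.0717), and the median over the 14 was 0.03. Of the 4 tested relatives of the 10, 0 passed in edgeR or DESeq2 and 1 had an unadjusted p under 0.05. The difference between these lists and the 10 factors was not tested.

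Genes of mature granule cells moved both ways. Of 15 tested, edgeR called 3 higher and 3 lower, where 1.27% and 1.38% of all genes tested were. The median log2 fold change of the 15 was 0.0044. Calb2, the calcium buffer calretinin, rose by 25.1%, and the leak channel gene Kcnk9 and the GABA-A δ subunit gene Gabrd rose by 27.8% and 11.1%. Gabra6 fell by 23.3%, the reelin gene Reln by 15.5% and the glutamate receptor gene Grm4 by 12.5%. The edgeR adjusted p of these 6 was at most 0.0171. The vesicular glutamate transporter gene Slc17a7 and the other 8 were not called in edgeR, while DESeq2 called 7 of the 15, the same 6 and Slc17a7 (log2 fold change -0.13, edgeR adjusted p = 0.0585). Over all genes, DESeq2 called 572. In edgeR, 9 of the 15 had an unadjusted p under 0.05, where 14.2% of all genes tested did.

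Markers of inhibitory interneurons were lower in sum in cKO. Their 12 genes summed to 765 to 864 CPM in cKO and 875 to 910 CPM in WT, without overlap. Of the 12, 11 had a negative log2 fold change, as 7759 of all 15467 genes tested did, and the median was -0.10. Lgi2, which encodes a secreted synaptic protein, fell by 13.4% (edgeR adjusted p = 0.00666), the one member called. Slc32a1 and Sorcs3 had small log2 fold changes of -0.04 and -0.03, and Nxph1 had the positive value, 0.03 (edgeR adjusted p = 0.524, 0.832 and 0.845). The part of these cells in the lower Zic, Neurod2 and Pax6 levels was not tested. Microglia markers summed to 168 to 195 CPM in cKO and 161 to 174 CPM in WT, and Cx3cr1 and Csf1r rose by 15.8% and 11.0% (edgeR adjusted p = 0.0331 and 0.0352). Of the markers of Purkinje cells (12 tested), astrocytes and Bergmann glia (10), oligodendrocytes (8) and choroid plexus and meninges (11), 0 passed in edgeR or DESeq2, and 3, 3, 0 and 0 had an unadjusted p under 0.05 in edgeR. At that threshold stood 8 of the 12 interneuron markers, 4 of the 9 microglia markers and 14.2% of all genes tested. Choroid plexus and meningeal markers varied most between libraries, from 249 to 1126 CPM in cKO and from 323 to 757 CPM in WT. Every marker of these lists that the table holds had counts in at least 1 library.

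**Figure D5:**
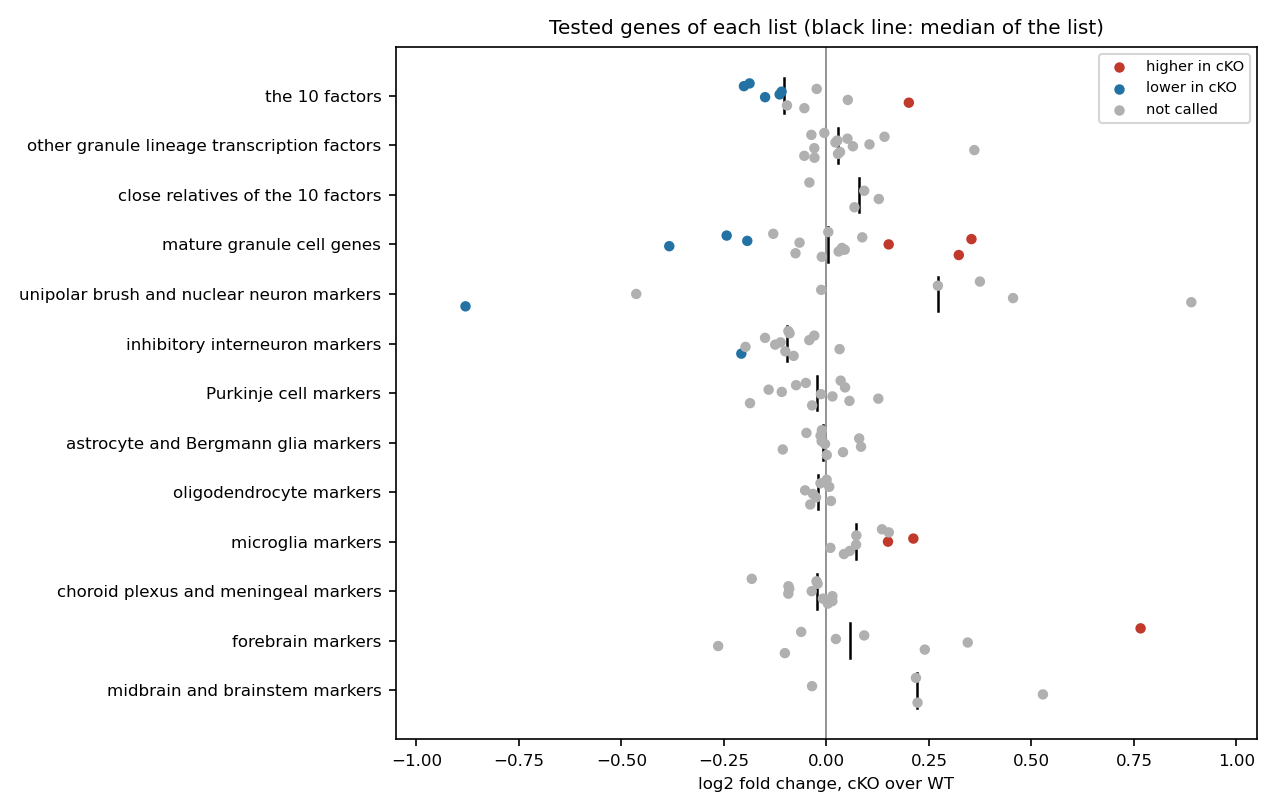
Log2 fold change, cKO over WT, of the tested genes of each list, with calls in red (higher) and blue (lower) and the median of the list as a black line. The 10 factors have a median of -0.10 and inhibitory interneuron markers one of -0.10, while the other lineage factors have one of 0.03.

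The authors' deposited table gave the same 6 calls, with Etv1 higher (log2 fold change 0.18, adjusted p = 2.33e-09) and the same 5 factors lower. In the authors' deposited table the log2 fold changes of Zic4, Zic5, Neurod2, Pax6 and Zic1 were -0.17, -0.15, -0.14, -0.10 and -0.10, with adjusted p of 3.83e-05, 0.00705, 7.85e-05, 0.00341 and 0.00118. It was made from the same libraries, so it is no independent evidence.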

How the data were processed

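Stranded mRNA libraries of 6 cKO and 6 WT cerebella were grouped by the genotype label, and replicate numbers only name libraries. The authors deposited raw counts per gene symbol. Per the submitters' processing notes, STAR, DESeq2 and the mm10 build were used, with no version named. How reads were counted (tool, strand, annotation) is not given in the sources used here. A DESeq2 comparison by the authors was deposited too, with log2 fold changes, p-values, a mean normalised signal (baseMean) and a test score per gene, per the file headers. Its sign was read from the 400 genes called there and here, all 400 with the same sign.

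The counts were tested with edgeR 4.0.16 in R 4.3.3: filterByExpr, TMM, the quasi-likelihood test without covariates and Benjamini-Hochberg adjustment over 15467 genes at 0.05. SE and 95% intervals came from the test statistic. Ratios used a pseudocount of 0.5 and the exact permutation over 924 assignments, with a smallest two-sided p of 0.00216. Alternatives used DESeq2 1.42.0, limma 3.58.1 and sva 3.50.0. Positions and exon lengths came from GENCODE M21 and start windows from RefSeq (GRCm38.p6), found for 9 of the 10 genes.

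The members and lists were chosen with earlier results of these data known. Named genes were all 10 factors, Gabra6 and Crhr1, and up to 4 called members of most other lists with the smallest p, except mature granule cell genes, where all 6 called are named. Others were named after their values were seen. Counts over lists include genes not reported here. Libraries of a genotype differed beyond counting noise (chi-square per degree of freedom at least 2.68). The gene test was also tested on simulated counts of 15467 genes. There it called 34% of genes changed 1.1-fold and 84% of genes changed 1.2-fold, and 4.27% of its calls were unchanged genes. A gene that was not called may therefore have changed by a small fold.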

Additional observations from a re-analysis of the deposited data

How the results depend on the processing

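All 10 factors kept the sign of their log2 fold change in all 20 alternative fits, and Etv1 kept its call in all 20. The count of factors higher in cKO was 1 throughout. The count of factors lower in cKO was 5 with RLE size factors, without a low-count filter, with DESeq2 and with limma-voom, 4 with thinned counts, 2 with the tissue score, 1 without the 4 libraries highest in that score and 0 with surrogate variables (6 at an unadjusted p under 0.05). Over all genes, 409 were called, against 572 with DESeq2, 189 with surrogate variables and 157 without those 4 libraries. Leaving out each library in turn gave 272 to 459 genes, with 272 without WT replicate 3, and 2 to 5 lower factors, with 2 without WT replicate 1 or 3. In the same 12 fits the difference in log2 ratio was 0.076 to 0.12 for Zic1 over Zic4, 0.16 to 0.19 for Zic2 over Zic5, 0.19 to 0.22 for Neurod1 over Neurod2 and 0.01 to 0.08 for Barhl1 over Barhl2. The cause of the lost calls was not tested. Thinning all libraries to the smallest total, 23.8 M counts, ended 1 of the 6 calls, that of Pax6. Start windows of 250 bases held TAATTA in 0.0% of the 12. No paired analysis was possible because the labels give no replicate numbers shared by the genotypes.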
